A study of Homo sapiens with 8 samples.

Results

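SPHINX31 is a small-molecule inhibitor of SRPK1, the kinase that phosphorylates the serine- and arginine-rich (SR) splicing proteins. The study cites a report of CLK1 and SRSF2 as further targets, and describes potential off-target activity. Changes below are therefore those seen with the compound, and their dependence on SRPK1 was not tested. The effect of SPHINX31 alone was examined in A549 cells, a human lung adenocarcinoma line of epithelial origin. Gene counts were compared between SPHINX31-treated and untreated cells. The comparison used 4 of the 8 libraries of the series, 2 from cells given SPHINX31 at 5 μM for 24 h and 2 from untreated cells, and all 4 were chosen by their titles and not by any measured value. The other 4 libraries came from cells given indisulam, a compound that directs the splicing factor RBM39 to degradation, at 0.5 μM, or the combination of both compounds, and they serve here only to set the spread and for one further comparison. Doses and time follow the study's methods. The treatment protocol in the labels, which reads alike for every sample, gives only indisulam, at 2 μM for 18 h, so the dose behind these libraries rests on the methods. SPHINX31 was dissolved in DMSO, and whether untreated cells received DMSO was not given in the sources used here. The libraries of a group are described as technical duplicates, so the p-values measure only the spread between these libraries.

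SR proteins bind exons and recruit the splicing machinery. SRPK1 phosphorylates them in the cytoplasm, which lets them enter the nucleus, where the CLK kinases phosphorylate them further. SRPK1 is best known in tumours for its part in the splice choice of VEGFA, which encodes the main blood vessel growth factor. Counts per gene register how much RNA a gene gave, not which exons were joined and not whether a protein carried phosphate.

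The libraries held between 51727369 and 63186989 counts on genes, and 82.96% to 86% of recorded reads fell on genes. Of 60624 genes, 18661 had enough counts to be tested. Replicate libraries differed by more than sampling noise in every group, so none was a copy of another. All 10 epithelial and A549 markers were well expressed, summing to between 23999 and 24972 CPM (counts scaled to a common library size) in the 4 libraries. Of 10 markers of alveolar type II cells, the lung cell type A549 is often taken to model, 5 were tested and the list summed to between 90.8 and 100 CPM. Nearly all of that was the lipid transporter ABCA3, with 4977 to 6195 counts in the 4 libraries, while the surfactant genes SFTPA1, SFTPA2 and SFTPB had no count in them and SFTPC had 6 to 14. Markers of blood, endothelial and fibroblast cells summed to at most 9.88 CPM each. Mitochondrial genes took 5.99% and 5.23% of counts in untreated cells and 4.21% and 4.79% with SPHINX31.

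In total 1616 genes differed between SPHINX31-treated and untreated cells at a Benjamini-Hochberg adjusted p under 0.05 in the quasi-likelihood test of edgeR. SPHINX31 raised 938 of them, 5.03% of the genes tested, and lowered 678, 3.63% of the genes tested. Among the 9980 genes whose average log2 CPM was 3 or more the shares were 7.31% and 5.52%, and these are the figures against which most function lists below should be read, since their members are well expressed. Most changes were small. The median log2 fold change was 0.359 among genes that rose and -0.305 among genes that fell, and 76.3% of the changed genes moved by under 0.5. Changes of at least 1 on the log2 scale were seen in 62 genes that rose and 30 that fell, of which 11 and 0 reached an average log2 CPM of 3. The split depended on the scaling: with scaling by total counts alone, 1355 genes rose and 513 fell, 72.5% against 58% higher. The number of calls also depended on single libraries, with 765 without SPHINX31 replicate 1, 489 without untreated replicate 1 and 561 without untreated replicate 2. Since each library came from a whole culture, fewer cells expressing a gene and less RNA per cell cannot be told apart.

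The RNA of the target itself did not differ detectably. SRPK1 (ENSG00000096063, chromosome 6, 35832966 to 35921342 on GRCh38) was at 128 and 129.6 CPM in untreated cells and at 118 and 131 CPM with SPHINX31. The SPHINX31 libraries lay on either side of the untreated ones, and the log2 fold change was -0.04 ± 0.0545 (SE, n = 2 libraries per group, edgeR adjusted p = 0.679). An inhibitor of the protein need not alter its RNA, so this value does not check the treatment. Its relative SRPK2 (0.13, edgeR adjusted p = 0.184) and the nuclear kinase CLK1 (0.14, 0.339) did not pass either. CLK3 rose from 33.7 and 33.9 CPM to 42.5 and 44.1 CPM, a log2 fold change of 0.36 (edgeR adjusted p = 0.00143). CLK2 fell by 0.28 on the log2 scale (edgeR adjusted p = 0.0435), and it shares its locus with HCN3 on the other strand, which also fell, by 0.46. Its call was lost when any 1 of the 4 libraries was left out, with adjusted p between 0.063 and 0.231, and under the replicate block. RBM39, the target of indisulam, was at 154 and 157 CPM untreated and 166 and 184 CPM with SPHINX31, a difference of 0.17 that missed the threshold (edgeR adjusted p = 0.0616).

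Among genes of the splicing machinery, 14.3% of SR proteins, 8.16% of the core spliceosome and 6.67% of hnRNPs and splicing regulators fell. No SR-related factor fell. The share that fell was 3.63% of all tested genes and 5.52% of well-expressed ones. The share that rose was 4.08% in the core spliceosome and 0% in the other lists, against 7.31% of well-expressed genes. Of 14 SR proteins tested, none rose and 2 fell. SRSF2 stood at 194 and 190.0 CPM untreated and at 146 and 175 CPM with SPHINX31 (-0.26, edgeR adjusted p = 0.0439), and SRSF9 went from 183 and 176 CPM to 157 and 159 CPM (-0.18, 0.0282). SRSF2 RNA was thus lowest in SPHINX31 replicate 1 and the groups did not overlap. SRSF1, the SR protein most often studied with SRPK1, missed the threshold (-0.15, edgeR adjusted p = 0.0806), and SRSF3 differed by -0.01 (0.896), its sign changing with scaling by total counts alone. None of 31 SR-related splicing factors was called. Of 49 genes of the core spliceosome, 2 rose and 4 fell, with PRPF3 of the tri-snRNP at 0.31 and the Sm proteins SNRPG and SNRPE at -0.30 and -0.26. PRPF3 lost its call without SPHINX31 replicate 2 (0.25) or either untreated library (0.30 and 0.32). SNRPE did so without either untreated library, and SNRPG without untreated replicate 2. Of 45 hnRNPs and splicing regulators, 3 fell, namely EWSR1 (-0.29), HNRNPA2B1 (-0.23) and TAF15 (-0.20). These calls depended on the processing. With GC correction, under which 1334 genes fell in all, 4 SR proteins, 6 SR-related factors, 7 core spliceosome genes and 11 hnRNPs and regulators fell. In the same fit 1431 genes rose in all, among them 3 SR-related factors and 3 core spliceosome genes, but no SR protein, hnRNP or regulator. No SR protein passed without SPHINX31 replicate 1 or without either untreated library, and 3 fell without SPHINX31 replicate 2. SRSF2 was at -0.14 without SPHINX31 replicate 1. Calls in the other lists also varied with the library left out, in both directions for the SR-related factors. The median of the SR-related factors was -0.07 in the main fit, 0.00 without SPHINX31 replicate 1 and -0.14 without SPHINX31 replicate 2. In the same order it was -0.05, -0.01 and -0.07 for the core spliceosome. For hnRNPs and regulators it was -0.04, -0.03 and -0.08. Of 27 snoRNA host genes 7 rose and 2 fell, 25.9% and 7.41%, against 7.31% and 5.52% of well-expressed genes. These are transcripts that are spliced to release small nucleolar RNAs from their introns, and many are degraded by nonsense-mediated decay. SNHG1 had 79.3 and 87.6 CPM untreated and 172 and 149 CPM with SPHINX31 (0.94, edgeR adjusted p = 5.17e-06), and SNHG8, SNHG32 and EPB41L4A-AS1 rose by 0.51 to 0.56. SNHG14 and TMEM107 fell, by 0.35 and 0.31. The number of risers was 4 without SPHINX31 replicate 1 or untreated replicate 2, and SNHG32 was not among the calls in either case. Among 23 genes of nonsense-mediated decay and its known targets, GADD45B (0.57) and SMG5 (0.18) rose, 8.7% of the list, and none fell. SMG5 lost its call without SPHINX31 replicate 1 or either untreated library.

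Among genes whose average log2 CPM was 3 or more, the 2 largest increases were in CYP1B1 and TIPARP, targets of the aryl hydrocarbon receptor (AHR). AHR is a ligand-activated transcription factor that waits in the cytoplasm with HSP90, moves to the nucleus on binding planar aromatic compounds, pairs with ARNT and binds sites with the core GCGTG. CYP1A1 and CYP1B1, which oxidise such compounds, and TIPARP, an ADP-ribosyltransferase that feeds back on AHR, are its classic targets. Shown here are the promoters of the called targets with the largest increase that the promoter table holds, from 250 bases before to 50 after the RefSeq gene start on GRCh38.p14, 5′ to 3′ on the gene's strand, with GCGTG or its reverse complement in capitals. They lie at chr15:74725479-74725778 (minus strand), chr3:156674340-156674639 (plus strand) and chr4:74364895-74365194 (plus strand).
CYP1A1: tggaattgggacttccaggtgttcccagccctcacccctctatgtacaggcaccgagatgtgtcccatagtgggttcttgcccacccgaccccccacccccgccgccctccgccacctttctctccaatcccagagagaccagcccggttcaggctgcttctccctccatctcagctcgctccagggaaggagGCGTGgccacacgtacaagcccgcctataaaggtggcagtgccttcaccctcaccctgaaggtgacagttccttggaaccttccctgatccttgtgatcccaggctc
TIPARP: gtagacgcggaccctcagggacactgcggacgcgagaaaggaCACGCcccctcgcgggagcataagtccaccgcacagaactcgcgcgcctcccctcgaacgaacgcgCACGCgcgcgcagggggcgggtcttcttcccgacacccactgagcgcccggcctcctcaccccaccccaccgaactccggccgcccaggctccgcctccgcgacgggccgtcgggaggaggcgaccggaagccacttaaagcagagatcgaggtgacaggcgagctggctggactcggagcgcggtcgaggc
EREG: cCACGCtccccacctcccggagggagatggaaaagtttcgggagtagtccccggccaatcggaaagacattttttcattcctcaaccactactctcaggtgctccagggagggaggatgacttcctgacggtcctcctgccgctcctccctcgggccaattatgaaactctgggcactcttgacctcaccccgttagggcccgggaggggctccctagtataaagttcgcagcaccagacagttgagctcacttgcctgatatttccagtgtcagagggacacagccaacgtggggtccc
The core was present in 9 of 18 AHR target promoters found in the table, 50%, and in 49.1% of the 12448 promoters of tested genes, so in these short windows it was as frequent in the one as in the other. It stands once in the CYP1A1 and EREG windows and at 2 places in that of TIPARP.

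CYP1B1 (chromosome 2, 38066973 to 38109902) was at 110.4 and 121 CPM in untreated cells and at 639 and 636 CPM with SPHINX31. The replicates nearly coincided and the groups stood far apart, with a log2 fold change of 2.46 ± 0.0694 (SE, edgeR adjusted p = 3.11e-10), the most significant difference measured. CYP1A1 was close to silent in untreated cells, at 0.227 and 0.0839 CPM from 14 and 5 counts, and reached 7.29 and 5.74 CPM. Its log2 fold change of 5.36 ± 0.269 therefore rests on few untreated counts, and moved between 4.83 and 6.24 when either untreated library was left out. TIPARP went from 17 and 16.6 CPM to 51.1 and 55.2 CPM (1.66, edgeR adjusted p = 1.85e-08). EREG, which encodes the EGF receptor ligand epiregulin, went from 95.9 and 106 CPM to 196 and 208 CPM (1.00, 2.77e-05). In all 4 genes every SPHINX31 library was above every untreated one.

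Of 21 AHR targets tested, 10 rose and 1 fell, with a median log2 fold change of 0.37. The share higher was 47.6%, against 5.03% of all tested genes and 7.31% of well-expressed ones. The remaining risers were UGT1A1 and UGT1A6, which add glucuronic acid to drugs and share exons so that their reads cannot be assigned safely, the prostaglandin synthase PTGS2, the antioxidant regulator NFE2L2, the amino acid transporter SLC7A5 and CYP2S1, at 0.26 to 0.57. NEDD9, a focal adhesion scaffold, fell by 0.34. The repressor AHRR had at most 0.188 CPM in these libraries and did not pass (edgeR adjusted p = 0.365). NQO1, a target shared by AHR and NRF2, was at 2598 and 2475 CPM untreated and 2647 and 2675 CPM with SPHINX31 and did not pass either (0.07, 0.392). The receptor's own RNA showed a difference of -0.05 (edgeR adjusted p = 0.678) and that of ARNT one of -0.02 (0.854), the latter with a sign that changed with the scaling and with the libraries used. Of 15 components of the AHR pathway, 4 rose (RELB, CREBBP, KLF6 and NCOA1, by 0.22 to 0.57) and the HSP90 genes HSP90AA1 and HSP90AB1, chaperones of the latent receptor, fell. That is 26.7% and 13.3% of the list, against 7.31% and 5.52% of well-expressed genes. No component was called without untreated replicate 1, 1 rose without untreated replicate 2, and 1 rose and 1 fell without SPHINX31 replicate 1.

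Other detoxification genes moved less. Of 39 genes of drug metabolism and efflux, 10 rose (25.6%) and 1 fell (2.56%), against 7.31% and 5.52% of well-expressed genes. Among the risers were CES1, a carboxylesterase (0.84), and the efflux pump ABCC1 (0.20), while MGST3 fell by 0.20. NRF2, encoded by NFE2L2, is the main activator of antioxidant genes and is stabilised in A549 cells by a mutation of its partner KEAP1. NFE2L2 RNA rose from 129 and 132 CPM to 177 and 182 CPM (0.46, edgeR adjusted p = 0.000113). Of 33 NRF2 targets, 8 rose (24.2%) and 3 fell (9.09%), with a median of 0.07. OSGIN1 (0.69), the nuclear receptor NR0B1 (0.46), GCLM, the regulatory subunit of the glutathione-making ligase (0.36), and HMOX1, heme oxygenase (0.35), rose, and PRDX1, GPX2 and AKR1C2 fell by 0.16 to 0.21. Without untreated replicate 2, 5 drug metabolism genes and 4 NRF2 targets rose, and 5 NRF2 targets rose without untreated replicate 1. HMOX1 lost its call without SPHINX31 replicate 1 or untreated replicate 2. The metal-binding protein MT2A rose from 42.5 and 39.1 CPM to 69.7 and 57.4 CPM (0.64, edgeR adjusted p = 0.00272) and MT1E by 0.39. The zinc importer SLC39A10 fell by 0.35, called only with both untreated libraries. MT1E lost its call without untreated replicate 2, at 0.37.

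Stress genes of the integrated stress response rose. In this response a phosphorylated initiation factor slows translation while the translation of ATF4 is favoured, and ATF4 with DDIT3 (CHOP) then switches on genes of amino acid supply and cell death. PPP1R15A, which encodes the GADD34 subunit that reverses the phosphorylation, was at 32.2 and 33.3 CPM untreated and at 90 and 73.6 CPM with SPHINX31 (1.32, edgeR adjusted p = 0.000115). DDIT3 went from 38.7 and 42.1 CPM to 86.1 and 74.1 CPM (0.99, 0.000436), and GDF15, a secreted stress cytokine, from 37.5 and 37 CPM to 97.6 and 79.6 CPM (1.25, 0.000148). In each of these the SPHINX31 libraries were well above the untreated ones and replicate 1 was the higher. Of 33 ATF4 targets, 12 rose and none fell, 36.4% against 5.03% of all tested genes and 7.31% of well-expressed ones. The median was 0.18, and 32 of 33 had a fold change above 0. ATF3 (0.84), NUPR1 (0.73) and the pseudokinase TRIB3 (0.64) followed, with STC2, CEBPB, SLC7A5, DDIT4, XPOT, SESN2 and SLC3A2 between 0.28 and 0.47. The RNA of ATF4 itself (0.08, edgeR adjusted p = 0.382) and that of its target ASNS, asparagine synthetase (0.15, 0.449), did not pass. Of 20 aminoacyl-tRNA synthetases 1 rose (WARS1) and 1 fell (VARS1), 5% each, against 7.31% and 5.52% of well-expressed genes. TRIB3 and VARS1 missed the threshold when any 1 of the 4 libraries was left out, and NUPR1 and WARS1 did so without SPHINX31 replicate 1 or either untreated library. The number of ATF4 targets that rose was 6 without SPHINX31 replicate 1, 6 without untreated replicate 1 and 5 without untreated replicate 2.

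Of the genes of the unfolded protein response of the endoplasmic reticulum, 16.7% were higher and 4.17% lower. The shares were 5.03% and 3.63% of all tested genes and 7.31% and 5.52% of well-expressed ones. Of its 24 genes, 4 rose and 1 fell. Besides PPP1R15A and DDIT3 these were the stress sensor ERN1 (IRE1), from 78.3 and 81.4 CPM to 131 and 119 CPM (0.64, edgeR adjusted p = 4.89e-05), and DNAJB9 (0.33). The chaperone HSPA5 (BiP), the usual marker of this response, was at 696 and 674 CPM untreated and 715 and 704 CPM with SPHINX31 (0.05, 0.544), and XBP1 was at -0.17 (0.0664). The disulfide isomerase PDIA4 was the member that fell, by 0.17. DNAJB9 lost its call without SPHINX31 replicate 1 or either untreated library.

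Of 39 p53 targets, 11 rose (28.2%) and 2 fell (5.13%), with a median of 0.10. Of well-expressed genes 7.31% rose and 5.52% fell. A549 cells carry an intact p53 gene. The risers included the growth arrest gene GADD45A, from 24.4 and 23.7 CPM to 47.6 and 41 CPM (0.88, edgeR adjusted p = 4.89e-05). The cell cycle inhibitor CDKN1A (p21) rose from 55.3 and 56 CPM to 78.9 and 72.1 CPM (0.44, 0.000589), and MDM2, the p53 ubiquitin ligase, by 0.17. TNFRSF10D, a decoy receptor for the death ligand TRAIL, fell from 40.5 and 35.3 CPM to 22.3 and 22.8 CPM (-0.75, 0.00048). Several of the risers, GDF15 and SESN2 among them, also stand on the ATF4 list. The number that rose was 7, 6 and 7 without SPHINX31 replicate 1, untreated replicate 1 and untreated replicate 2. Of 30 apoptosis regulators, 5 rose (16.7%) and 1 fell (3.33%). Those that rose were the BH3-only genes BMF (1.49, at 0.324 and 0.47 CPM untreated), BBC3 or PUMA (0.47) and PMAIP1 or NOXA (0.29), which promote cell death, and BCL2L2 (0.37) and BIRC2 (0.26), which oppose it. APAF1, the core of the apoptosome, fell by 0.28. The number of apoptosis regulators that rose was 2 without either untreated library and 3 without either SPHINX31 library. PMAIP1 and MDM2 lost their calls when any 1 library was left out, and BBC3 did so in each case but SPHINX31 replicate 2.

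Genes of cholesterol synthesis and uptake formed the list with the largest share of risers. The transcription factor SREBP2, encoded by SREBF2, activates this pathway when sterols in the endoplasmic reticulum run low. Of 27 genes, 21 rose and none fell, 77.8% against 5.03% of all tested genes and 7.31% of well-expressed ones, with a median log2 fold change of 0.43. LSS, lanosterol synthase, was at 34.7 and 32.6 CPM untreated and 51.2 and 53.4 CPM with SPHINX31 (0.64, edgeR adjusted p = 4.89e-05). MVK, mevalonate kinase, went from 19 and 16.5 CPM to 24.6 and 28.9 CPM (0.59, 0.000809), and INSIG1, which retains the SREBP complex, from 35.4 and 34.4 CPM to 45.9 and 62.7 CPM (0.64, 0.0128). For INSIG1 replicate 2 was clearly the higher of the treated libraries. SREBF2 itself rose by 0.32 and the cholesterol transporter STARD4 by 0.62, while NPC1L1, at under 1 CPM in all 4 libraries, had the highest value of the list, 1.26. The median over the list was 0.29 between the replicates numbered 1 and 0.55 between those numbered 2, so the size differed between libraries and the direction did not. The number of risers was 14 without SPHINX31 replicate 2 and 11 without either untreated library, with INSIG1 among those lost in the latter.

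Fatty acid synthesis, driven by the related factor SREBP1, rose at several steps. Of 18 genes, 7 rose (38.9%, against 7.31% of well-expressed genes) and none fell. SCD, the desaturase that makes oleic acid and among the most abundant of these RNAs, went from 1369.6 and 1313 CPM to 2018 and 2096 CPM (0.62, edgeR adjusted p = 2.76e-06). FASN, fatty acid synthase, went from 318 and 306 CPM to 399 and 399 CPM (0.36, 0.00436), and ACSS2, ACSL1, FADS1, FADS2 and ACSL4 rose by 0.20 to 0.56. Of the 10 targets of LXR, the receptor that answers to sterol excess, none rose and LPCAT3 fell by 0.24. Without untreated replicate 2, 4 genes of fatty acid synthesis rose, and FASN missed the threshold there (0.0531) and without SPHINX31 replicate 1 (0.0504). LPCAT3 was called only with SPHINX31 replicate 2 and both untreated libraries in the data.

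Genes of lysosomes and autophagy rose as well. TFEB, TFE3 and their relatives activate this set at the motif TCACGTGA when the kinase mTORC1 is inactive at the lysosome. Of 36 genes, 16 rose and none fell, 44.4% against 5.03% of all tested genes and 7.31% of well-expressed ones. The median was 0.17. SQSTM1 (p62), the receptor that hands cargo to autophagosomes, was at 855 and 851 CPM untreated and 1379 and 1274 CPM with SPHINX31 (0.64, edgeR adjusted p = 5.14e-06). MAP1LC3B, an autophagosome coat protein, went from 82.7 and 86.6 CPM to 128 and 119 CPM (0.55, 0.000102), and NPC1, which exports cholesterol from lysosomes, from 47.7 and 47.5 CPM to 70.4 and 66.9 CPM (0.53, 5.8e-05). In each the groups were far apart beside the spread of their replicates. RRAGD, RRAGC, FLCN and FNIP1, which form the nutrient-sensing Rag GTPase branch upstream of mTORC1 and TFE3, rose by 0.64, 0.61, 0.55 and 0.32. The protease CTSL (0.48) and the membrane protein LAMP2 (0.21) rose, and so did TFE3 (0.22), whereas TFEB, at 6.96 and 6.26 CPM untreated, did not pass (0.08, edgeR adjusted p = 0.694). The motif TCACGTGA, looked up after these counts were known, was found in 5 of 27 promoters of the list (18.5%) against 1.74% of promoters of tested genes, in ATP6V0D1, CTSA, GAA, LAMP1 and MCOLN1, none of them among the 16 risers. The count of risers was 10 without SPHINX31 replicate 1 and 8 without untreated replicate 2. TFE3 and LAMP2 lost their calls without either untreated library. The same held for TFE3 without SPHINX31 replicate 1, at 0.14, and for LAMP2 without SPHINX31 replicate 2, at 0.19. FLCN lost its call without SPHINX31 replicate 1, at 0.46, or untreated replicate 2, at 0.49.

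Heat shock and chaperone genes were lower. HSF1 activates this set at sites made of inverted GAA repeats when unfolded protein accumulates. The promoters of HSPA8 and HSPA1A, members with a large decrease and high abundance or a classic heat response, are given in the same window and build, at chr11:123062087-123062386 (minus strand) and chr6:31815293-31815592 (plus strand), with GAANNTTC and TTCNNGAA in capitals.
HSPA8: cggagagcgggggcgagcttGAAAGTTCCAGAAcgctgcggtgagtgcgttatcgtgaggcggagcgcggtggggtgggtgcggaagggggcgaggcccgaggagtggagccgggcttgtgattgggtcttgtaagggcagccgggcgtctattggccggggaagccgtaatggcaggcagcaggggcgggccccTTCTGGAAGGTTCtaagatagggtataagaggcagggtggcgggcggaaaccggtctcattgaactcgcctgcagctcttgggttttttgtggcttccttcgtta
HSPA1A: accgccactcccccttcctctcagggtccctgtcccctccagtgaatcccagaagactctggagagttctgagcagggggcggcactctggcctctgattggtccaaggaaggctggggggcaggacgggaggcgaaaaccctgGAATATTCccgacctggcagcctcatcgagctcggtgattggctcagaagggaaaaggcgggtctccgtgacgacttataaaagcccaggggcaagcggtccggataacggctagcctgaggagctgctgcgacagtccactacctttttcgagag
The HSPA8 window held 4 overlapping or adjoining matches in 2 clusters and that of HSPA1A held 1. These letters were in 13 of 39 promoters of the list, 33.3%, against 10.2% of promoters of tested genes. Among genes with them, DNAJA1, HSPA1A, HSPA1B, HSPA1L and HSPA8 fell and HSPA9 rose. BAG2, CCT4, CHORDC1, DNAJB6, HSPB1, HSPB8 and TCP1 also had them and were not called. A link between the motif and the decreases was not tested.

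Of 43 heat shock and chaperone genes, 18 fell and 2 rose, 41.9% lower against 3.63% of all tested genes and 5.52% of well-expressed ones, with a median of -0.15. HSPA8, the constitutive HSC70 chaperone, was at 1109 and 1053 CPM untreated and at 619 and 742 CPM with SPHINX31. Every treated library was below every untreated one, replicate 1 the most, and the log2 fold change was -0.67 ± 0.0725 (SE, edgeR adjusted p = 0.000205). The inducible HSP70 genes HSPA1A, from 29 and 26.8 CPM to 15.5 and 16 CPM (-0.82, 0.000305), and HSPA1B, from 34.6 and 31.4 CPM to 19.7 and 18.6 CPM (-0.79, 8.38e-05), are near-identical copies whose reads cannot be assigned safely. HSP70 co-chaperones and exchange factors fell with them, DNAJA1 from 350.2 and 353 CPM to 227 and 262 CPM (-0.53, 0.000146) and HSPH1 by 0.34. The cytosolic HSP90 genes fell too, HSP90AA1 from 1839.7 and 1927 CPM to 1274 and 1633 CPM (-0.37, 0.0344) and HSP90AB1 by 0.16, and so did the HSP90 co-chaperones FKBP4, AHSA1 and STIP1. HSPE1, the mitochondrial HSP10, fell by 0.48, while the mitochondrial HSPA9 and the reticulum protein DNAJB9 were the 2 that rose. HSF1 RNA did not pass (0.11, edgeR adjusted p = 0.412). The number that fell was 11 without SPHINX31 replicate 1 and 9 without either untreated library. HSP90AA1, HSP90AB1 and HSPH1 lost their calls in the latter case. HSP90AB1 (-0.11) and HSPH1 (-0.21) also lost theirs without SPHINX31 replicate 1.

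Proliferation genes were lower as a group, by small amounts. Of 49 genes of DNA replication and S phase, 17 fell and none rose. That is 34.7% lower, against 3.63% of all tested genes and 5.52% of well-expressed ones. The median was -0.19, and 48 of 49 had a fold change below 0. The cyclin that starts S phase, CCNE1, went from 13.7 and 13.6 CPM to 10.2 and 10.9 CPM (-0.37, edgeR adjusted p = 0.0135), and the helicase subunit MCM4 from 254 and 257 CPM to 179 and 219.7 CPM (-0.36, 0.00996). PCNA, the replication clamp, fell by 0.26 and thymidylate synthase, TYMS, by 0.24. Of 59 mitosis genes, 22 fell (37.3%) and 1, the phosphatase CDC25B, rose, with a median of -0.20. ANLN, the anillin of the cleavage furrow, went from 242 and 246 CPM to 147 and 191 CPM (-0.53, 0.0105) and the kinesin KIF20A from 139 and 141 CPM to 101 and 110.0 CPM (-0.40, 0.00048), replicate 1 again the lower. The mitotic kinase CDK1 fell by 0.26, and MKI67, the proliferation marker, was at -0.36 and missed the threshold (edgeR adjusted p = 0.0514). Of 48 genes of the DNA damage response and repair, 6 fell (12.5%) and none rose, CLSPN, FANCM, FANCA and FANCD2 by 0.34 to 0.43. Of 22 G1 regulators, CDKN1A and MYC (0.40) rose and MXD3 fell by 0.38, with CCND1, cyclin D1, at 0.06 (0.455). That is 9.09% higher and 4.55% lower, against 7.31% and 5.52% of well-expressed genes.

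The number of calls in these lists varied widely with the libraries used. The replication list had 3 fallers without SPHINX31 replicate 1, 31 without SPHINX31 replicate 2, 1 without untreated replicate 1 and 3 without untreated replicate 2. The mitosis list had 6, 38, 8 and 1 in the same order, and the repair list 0, 17, 0 and 0. CCNE1, PCNA, TYMS, CDK1 and the named repair genes lost their calls without SPHINX31 replicate 1 or either untreated library, MCM4 and ANLN without either untreated library, and MXD3 without any 1 library. The list medians stayed below 0 in the main fit and in every alternative that refits the data. They ran between -0.29 and -0.10 for replication and between -0.27 and -0.15 for mitosis. Another threshold leaves them unchanged by construction. With a correction for GC content 42 mitosis genes fell.

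Genes of oxidative phosphorylation were also slightly lower. Of 74 nuclear genes, 15 fell and none rose, 20.3% against 3.63% of all tested genes and 5.52% of well-expressed ones. The median was -0.12. ATP5MC1, a ring subunit of ATP synthase, went from 123 and 119 CPM to 94.7 and 90.2 CPM (-0.39, edgeR adjusted p = 0.00096), and the complex I subunit NDUFB3 from 42.4 and 43.6 CPM to 32.9 and 33 CPM (-0.38, 0.000735). The count was 8 without SPHINX31 replicate 2, 3 without either untreated library and 26 with GC correction. Of 39 glycolysis and hypoxia genes, 4 rose (10.3%) and 6 fell (15.4%), against 7.31% and 5.52% of well-expressed genes. Risers were VEGFA, the mTORC1 inhibitor DDIT4 (0.35) and the glucose transporters SLC2A3 (0.34) and SLC2A1 (0.25). All 6 fallers were enzymes of the pathway from glucose 6-phosphate to lactate. These were GPI, TPI1, GAPDH, PGAM1, PKM and LDHA, at -0.22 to -0.15. LDHA, lactate dehydrogenase, went from 1787 and 1742 CPM to 1479 and 1552 CPM (-0.22, edgeR adjusted p = 0.00702). The number that fell was 3 without SPHINX31 replicate 1, 1 without SPHINX31 replicate 2 and 0 without untreated replicate 1. The number that rose was 1 without SPHINX31 replicate 1 or untreated replicate 2, SLC2A3 lost its call without any 1 library, and the sign of the list's median changed with the libraries used.

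All 13 mitochondrially encoded genes had fold changes below 0, with a median of -0.37, and MT-ND3 passed (-0.29, edgeR adjusted p = 0.0389), a call lost when any 1 library was left out. The number called varied from 0 with GC correction to 5 with the replicate block, 5 with the filter of 10 counts, 7 with every gene of at least 1 count and 11 with only the groups compared. MT-CO1 was at 11637 and 9891 CPM untreated and at 7579.5 and 9101 CPM with SPHINX31 (-0.37, 0.0773). The distance between replicates exceeded the gap between the nearest libraries of the groups. The median of the 13 was -0.56 between the replicates numbered 1 and -0.15 between those numbered 2. Of 75 cytosolic ribosomal protein genes 2 fell (2.67%), RPS26 by 0.33 and RPL24 by 0.23. Of 33 proteasome genes 3 fell (9.09%). The share that fell was 5.52% of well-expressed genes. The proteasome list had 0 fallers without either untreated library and 9 with GC correction, and the ribosomal list 5 without SPHINX31 replicate 1, 1 without untreated replicate 2 and 7 with GC correction.

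Growth factor and early response genes rose in part. Of 41 immediate early and MAPK feedback genes, 14 rose (34.1%) and 2 fell (4.88%), with a median of 0.16. Of well-expressed genes 7.31% rose and 5.52% fell. EGR1 went from 7.17 and 7.4 CPM to 11.2 and 12.7 CPM (0.71, edgeR adjusted p = 0.000528) and the AP-1 subunit FOSL1 from 27.6 and 26.7 CPM to 42.5 and 41.4 CPM (0.63, 3.11e-05). IER3, JUN, KLF4, PHLDA1 and the ERK phosphatase genes DUSP1, DUSP4, DUSP5 and DUSP6 rose, while the nuclear receptor NR4A1 and DUSP10 both fell by 0.51. Ligands of the EGF receptor rose: AREG, amphiregulin, from 73.3 and 78.9 CPM to 163 and 158 CPM (1.08, 1.69e-05), EREG as above, and BTC, betacellulin (0.45). The receptor gene EGFR rose by 0.22 (0.0491) and its partner ERBB2 fell by 0.29 (0.0095). VEGFA, whose splicing SRPK1 is known to influence, rose in total RNA from 149 and 147 CPM to 217 and 192 CPM (0.47, 0.000205), VEGFC by 0.31, and the co-receptor NRP2 fell by 0.42. EGFR lost its call without SPHINX31 replicate 1 or 2 or untreated replicate 1, ERBB2 and BTC without untreated replicate 1, and VEGFC without either untreated library.

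Of 27 NF-kB, cytokine and chemokine genes, 8 rose (29.6%) and 2 fell (7.41%), against 7.31% and 5.52% of well-expressed genes. Most were of low abundance. The cytokine IL6 went from 4.06 and 4.46 CPM to 9.02 and 7.55 CPM (0.96, edgeR adjusted p = 0.000154), the chemokine CXCL2 from 4.37 and 5.05 CPM to 8.38 and 8.1 CPM (0.81, 0.000274), and the adhesion molecule ICAM1 from 1.13 and 0.805 CPM to 2.73 and 1.97 CPM (1.27, 0.00211). The groups did not overlap in these 3 genes. The number that rose was 4 without SPHINX31 replicate 1 and without either untreated library. TNFSF10 (TRAIL) fell by 0.61. Interferon-stimulated genes went both ways, 3 of 38 higher (7.89%) and 4 lower (10.5%), against 7.31% and 5.52% of well-expressed genes. OAS1 fell from 170.3 and 169.6 CPM to 112 and 124 CPM (-0.52, 5.29e-05). Of 19 clock genes, 6 rose (31.6%) and none fell. Among the risers were the repressors NR1D1 (0.41) and NR1D2 (0.51), NFIL3 (0.58) and PER1 (0.26). Without untreated replicate 2, 2 clock genes rose. Further lists were those of TGF-beta, YAP, Wnt and Notch, complement, ion transport and G protein-coupled receptor genes and that of receptor tyrosine kinases. Each had between 3 and 5 risers and between 1 and 4 fallers among 25 to 50 tested genes. By list, 8% to 13.8% rose and 3.45% to 10.3% fell. Of all tested genes 5.03% rose and 3.63% fell, and of well-expressed ones 7.31% and 5.52%.

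Several of the strongest changes lay outside these functions or stood alone in them. VIPR1, a receptor for vasoactive intestinal peptide, went from 5.37 and 5 CPM to 15 and 14.3 CPM (1.50, edgeR adjusted p = 8.31e-07). The antisense RNA gene IGFL2-AS1 rose from 6.41 and 6.73 CPM to 17.5 and 18.2 CPM (1.44, 6.26e-07), and LHX9, a homeobox factor, from 22.2 and 22.5 CPM to 50.3 and 47.5 CPM (1.13, 7.93e-06). IGFBP1, a secreted binder of insulin-like growth factors, was at 169 and 132 CPM untreated and 399.9 and 277 CPM with SPHINX31. The IGFBP1 libraries of each group were far apart, and its increase of 1.17 (edgeR adjusted p = 0.0152) missed the threshold without untreated replicate 2 (0.0542). Of 32 histone genes 2 rose (6.25%) and none fell, with H1-4 at 0.91 from about 1 CPM or less. Of 19 genes of MHC class I presentation, HLA-E rose (0.26), 5.26% of the list. The share that rose was 5.03% of all tested genes and 7.31% of well-expressed ones. H1-4 and HLA-E lost their calls without SPHINX31 replicate 1 or either untreated library.

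Among the genes that fell, DKK1, a secreted inhibitor of Wnt signalling (chromosome 10, 52314281 to 52318042), was at 454 and 419 CPM untreated and 255 and 270.3 CPM with SPHINX31 (-0.73, edgeR adjusted p = 5.17e-06). ZC3HAV1, the antiviral zinc finger protein ZAP that binds CpG-rich RNA, went from 105 and 105 CPM to 58 and 66.8 CPM (-0.75, 2.51e-05). The olfactory receptor gene OR51E1 went from 30.4 and 28.1 CPM to 16.7 and 18.5 CPM (-0.73, 0.000149). In these 3 genes the groups were clearly apart. UPK3B fell by 0.78, FAM111B by 0.74, the gap junction gene GJB1 by 0.69 and the Notch-modifying enzyme LFNG by 0.83. LINC01089 fell by 0.79 and FMNL1-DT by 0.69, and both lie against or within a protein-coding gene (RHOF and FMNL1) from which reads may be shared. Calls were lost for LINC01089 and FMNL1-DT without SPHINX31 replicate 1, for FAM111B without untreated replicate 2, and for GJB1 without SPHINX31 replicate 2 or untreated replicate 1.

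By gene structure, shares of called genes are given without a test and without regard to abundance, with which calls rose. Of 780 protein-coding genes whose transcript was at most 1000 bases long, 2.05% rose and 6.92% fell. Of 4014 with transcripts of 3000 to 5000 bases, 7.55% rose and 4.21% fell. Of 326 protein-coding genes with a single exon, 4.91% rose and 3.07% fell, and of 13684 with several exons 6.01% and 4.43%. Of 3157 long noncoding RNA genes 2.41% rose and 1.33% fell.

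SPHINX31 was also added to cells that received indisulam, which gives a comparison of combination with indisulam that shares no library with the one above. In it 601 genes rose, 3.22% of those tested, and 825 fell, 4.42%. Of the 938 genes raised by SPHINX31 alone, 852 (90.8%) had the same direction in the presence of indisulam, 325 (34.6%) were called higher there and 0 were called lower. Of the 678 lowered by SPHINX31 alone, 652 (96.2%) had the same direction, 327 (48.2%) were called lower and 0 were called higher. Over all tested genes, 50.5% lay above 0 in this comparison and 49.5% below. The log2 fold changes of both comparisons had a Pearson correlation of 0.357 over all tested genes. It was 0.709 over the 9980 genes whose average log2 CPM was 3 or more. Taken the other way, the shared genes made up 54.1% of the 601 and 39.6% of the 825. The median change of the 938 was 0.359 without and 0.209 with indisulam, and that of the 678 was -0.305 and -0.236. Genes chosen for passing a test in one comparison tend to have larger values in it, so these medians are not a test of a difference.

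**Figure D1:**
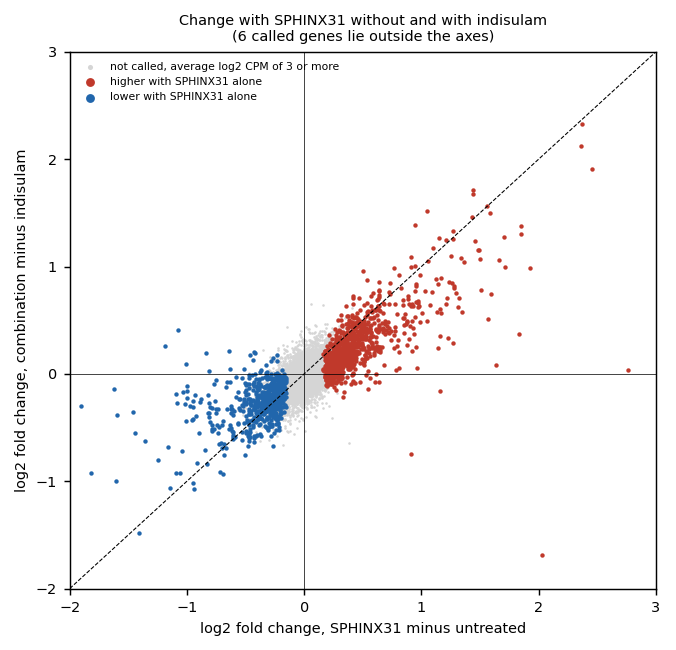
Log2 fold change of combination minus indisulam (vertical axis) against that of SPHINX31 minus untreated (horizontal axis), with 1 point per gene, a dashed line of equal change and 6 called genes outside the axes. Genes raised by SPHINX31 alone (red) lie mostly above 0 on the vertical axis (852 of 938) and genes lowered (blue) mostly below it (652 of 678). Of all tested genes, 50.5% have a value above 0 on that axis and 49.5% below.

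CYP1B1 was at 98.1 and 97.4 CPM with indisulam and 339 and 395 CPM with the combination (1.91, edgeR adjusted p = 7.39e-09). PPP1R15A went from 26.1 and 26.5 CPM to 37.5 and 48 CPM (0.70, 0.00586) and SQSTM1 from 814 and 852 CPM to 1266 and 1248 CPM (0.59, 2.12e-05). These 3 genes were higher in every library that held SPHINX31. By function, 19 of 27 cholesterol genes rose with indisulam present, with a median of 0.43, as did 13 of 36 lysosome genes, 9 of 33 ATF4 targets and 8 of 21 AHR targets. Mitosis genes fell in 48 of 59 cases (median -0.31), replication genes in 9 of 49 and heat shock genes in 7 of 43. Of all tested genes 3.22% rose and 4.42% fell in this comparison. HSPA8 was at 1766 and 1753 CPM with indisulam and at 1679 and 1554 CPM with the combination, a difference of -0.12 that did not pass (0.362). IL6 and CXCL2, both raised by SPHINX31 alone, each differed by 0.05 with indisulam present and did not pass.

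Whether the effect of SPHINX31 differed with indisulam was tested by the interaction of the treatments, which passed for 0 genes with edgeR, the smallest adjusted p being 0.14, while 1565 genes had an unadjusted p under 0.05. DESeq2 called 32. A larger change of a gene in one of the comparisons is therefore not shown here to be a difference between them.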

How the data were processed

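RNA of A549 cells was sequenced by the authors in 8 polyA-selected, stranded, paired-end libraries. The deposited values are raw counts of reads per Ensembl gene. Per the labels' processing notes they were made with HISAT2 2.2.1 and HTSeq on GRCh38. The strand setting and annotation of the counting are not given in the sources used here. Rows for reads outside genes, ambiguous or not uniquely aligned, 14% to 17.04% of recorded reads per library, were kept out of library sizes and tests.

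Libraries were grouped by title. Genes were filtered with filterByExpr and scaled by TMM, and SPHINX31 against untreated, combination against indisulam and their interaction were tested with edgeR 4.0.16 (quasi-likelihood, robust) in R 4.3.3 on all 8 libraries, calling genes at a Benjamini-Hochberg adjusted p under 0.05. The fit left 4 residual degrees of freedom and a biological coefficient of variation of 0.0491. CPM are counts relative to the scaled library size. With at least 51727369 counts per library, counting error is small except for genes such as CYP1A1, and standard errors cover both counting error and the spread between libraries.

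The comparison, the 45 function lists and the naming rule were chosen with earlier results of these data known, and lists share members. Named were 7 genes around the target, the 12 largest increases and 12 largest decreases among called genes whose average log2 CPM reached 3 and whose direction was shared by each pair of equal replicate number, up to 4 called members per list, and 41 genes named for their role or after their values were seen. Other list members are given with their value as examples. Gene positions are from GENCODE 44 and promoters from RefSeq, both on GRCh38. Alternatives were DESeq2 1.42.0, other scalings and filters, GC correction, a replicate block, fewer groups, another threshold and leaving out each library. Promoter motifs for sterol and lysosome genes were added after the list counts were seen. TCACCCCAC, a sterol response element, was in 1 of 20 cholesterol promoters and 0.362% of those of tested genes. Some genes that meet the naming rule are not reported here.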

Additional observations from a re-analysis of the deposited data

Results flagged for a closer look

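In 5 named genes every SPHINX31 library was above every untreated library, while every combination library was below every indisulam library. For the transcription factor KLF6 the log2 fold changes were 0.23 and -0.09, a difference of -0.32 (edgeR interaction, adjusted p = 0.251). For the reticulum chaperone DNAJB9 they were 0.33 and -0.21, a difference of -0.54 (0.306). For the linker histone gene H1-4, at about 1 CPM or less, they were 0.91 and -0.75, a difference of -1.66 (0.341). For the growth factor binding protein IGFBP3 they were 0.23 and -0.06, a difference of -0.29 (0.378). For HSPA5, the reticulum HSP70, they were 0.05 and -0.14, a difference of -0.19 (0.444). None of these differences passed the interaction test.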

How the results depend on the processing

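The number of genes changed by SPHINX31 alone, 1616, rose to 2765 with GC correction, 2455 with the replicate block and GC correction and 2644 at an adjusted p under 0.1, and ran from 489 to 1578 when 1 library was left out, in which case the remaining library of the group is assumed to vary like the others. For combination against indisulam, 1426, the values were 2440, 2183, 2232 and 463 to 1050. The interaction, called for 0 genes, was called for 32 with DESeq2, 36 with GC correction, 92 with every gene of at least 1 count, 19 with the replicate block and GC correction, and 0 to 1 when 1 library was left out. The block alone gave 1365, 1204 and 0. Whether libraries of the same replicate number were handled together is not given in the sources used here. Deviations of same-numbered libraries from their group mean correlated at 0.456 between untreated and SPHINX31. They correlated at -0.574 between untreated and indisulam and at -0.498 between indisulam and SPHINX31. The other pairs of groups lay between 0.017 and 0.175, with indisulam and combination at 0.086. What lies behind these correlations was not tested. Over 196 named genes and every alternative that refits the data, 2546 values in all, 2235 kept direction and side of the threshold, 290 lost the call, 17 gained it and 4 reversed. The reversals were of uncalled genes: SRPK1 at 0.03 and ARNT at 0.02 without SPHINX31 replicate 1 (-0.12 and -0.07 without SPHINX31 replicate 2, their lowest values), and ARNT at 0.01 and SRSF3 at 0.02 with scaling by total counts alone, which shifts all genes alike (median from -0.006 to 0.028) and so turns values near 0 by construction. The cause of the others was not tested. Most lost calls came with 1 library left out, 58 without SPHINX31 replicate 1, 24 without SPHINX31 replicate 2, 71 without untreated replicate 1 and 83 without untreated replicate 2. The 2 libraries per group, technical duplicates, limit every comparison.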
